A study of Mus musculus with 130 samples.

Results

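The Pramel and Oog genes of the mouse were followed in single 2-cell embryos cultured with SR1848, a small molecule used to block the orphan nuclear receptor Nr5a2, or with its solvent DMSO. The set holds every gene that the authors' deposited table names Pramel, Pramef or Oog with a number: 51 genes of the 36161 in the counts. All embryos were B6129F1, collected as zygotes 5 h after fertilization and cultured without oil. From 6 h on, 80 embryos were kept in medium with 10 µM SR1848 and 50 in medium with 0.1% DMSO. Of 56 controls named in the design text, 50 were used here. Each embryo gave its own oligo-dT-primed Smart-seq2 library, a full-length cDNA method, and the series asks what Nr5a2 contributes to the start of transcription from the embryonic genome. Litters, drops and plates are not in the labels, so the p-values rest on embryo-to-embryo spread, which may be technical in part.

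The genes belong to the PRAME family, whose proteins are built of leucine-rich repeats and which has multiplied into tandem arrays in the mouse genome. Human PRAME works as a substrate receptor: it joins a ubiquitin ligase built on the scaffold CUL2 through the elongin adaptors and decides which protein is marked for destruction. In mouse embryonic stem cells and in the inner cell mass, Pramel7 sends UHRF1, the partner of the maintenance DNA methyltransferase DNMT1, down this route. The Oog genes were named for their expression in oocytes, which leave a large store of transcripts to the embryo.

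The 130 libraries held 2730852 to 8438537 counts each. Levels are in CPM, counts as a share of the library, on library sizes scaled by the TMM method, a relative unit: RNA per embryo was not measured, and less RNA of all kinds cannot be told apart from a change in share. Nr5a2 itself had 10.6 ± 7.76 CPM with SR1848 and 96.3 ± 26.9 CPM with DMSO (SD, n = 80 and 50), and its lowest DMSO value of 50.3 CPM lay above the highest SR1848 value of 36.6 CPM. Of 45 tested genes of a list of stored oocyte transcripts, which holds no Pramel or Oog gene, 41 were higher with SR1848 and 1 lower (6 and 25 when their own sum set the scale), with sums of 16456 to 77303 CPM with SR1848 and 7487 to 27393 CPM with DMSO. A list of 30 genes that 2-cell embryos switch on summed to 3827 ± 1499 CPM with SR1848 and 1631 ± 442 CPM with DMSO. Of its 29 tested genes, 21 were higher and 7 lower, where 47.2% and 35.4% of all genes were. When the sum of the oocyte list set the scale, 15 were higher and 10 lower, where 9.07% and 67% of all genes were. Markers of other cells were looked at likewise: 15 cumulus genes summed to 0.309 to 283 CPM with SR1848 and 0.431 to 18.3 CPM with DMSO, with Amh and Fshr at or under 0.105 CPM on average in both groups. The sperm markers Prm1 and Tnp1 averaged 0.205 and 0.224 CPM with SR1848 and 0.100 and 0.00503 CPM with DMSO, and Smcp had no count. Of the sperm list, 2 tested genes (Odf2, at -0.043 with the summed oocyte list, and Hspa1l) were higher and 1 (Ldhc) lower. Its sums of 168 to 907 CPM with SR1848 and 88.8 to 383 CPM with DMSO came almost wholly from Odf2. Among the blood genes Hba-a1 and Hba-a2 were higher with SR1848, at 86.7 and 157 CPM against 13.5 and 29.3 CPM, while Hbb-bs was near 0, Hbb-bt had no count, and the list's sums ran from 61.4 to 662 CPM with SR1848 and from 11.1 to 135 CPM with DMSO. The part of these lists in the results below was not tested.

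Of the 51 genes, 50 had enough counts to be tested. Against DMSO, 34 were higher with SR1848, 12 were lower and 4 did not pass the threshold of 0.05 on the edgeR p adjusted over all 13224 genes tested. Among all genes tested, 82.6% passed, 47.2% higher and 35.4% lower, and the set's counts are to be read against these shares. The median log2 fold change of the tested Pramel and Oog genes was 1.23, beside 0.30 for all genes. When libraries were scaled to the summed oocyte list instead, 17 of the set were higher and 21 lower, where 9.07% and 67% of all genes were (76% in either direction) and the median of all genes was -1.04. A scaling to the median gene of that list, added after the data were seen, gave 22 higher and 17 lower, where 19.4% and 54.5% of all genes were (73.8% in either direction) and their median was -0.60. The log2 fold change of each of the 50 genes was 0.88 to 1.41 lower with the summed list than with TMM, so the rises given below are smaller and the falls larger on that scale. Relative to the median of all genes, 33 of the 50 stood above and 16 below under each of the 3 scalings, and Oog3 alone changed side. No Pramel or Oog gene separated the groups completely, which 3 genes (0.0227%) did upwards and 207 (1.57%) did downwards among all tested. Summed over the 51 genes, the family took 7948 ± 3498 CPM with SR1848 and 5291 ± 1779 CPM with DMSO (SD, n = 80 and 50).

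**Figure D1:**
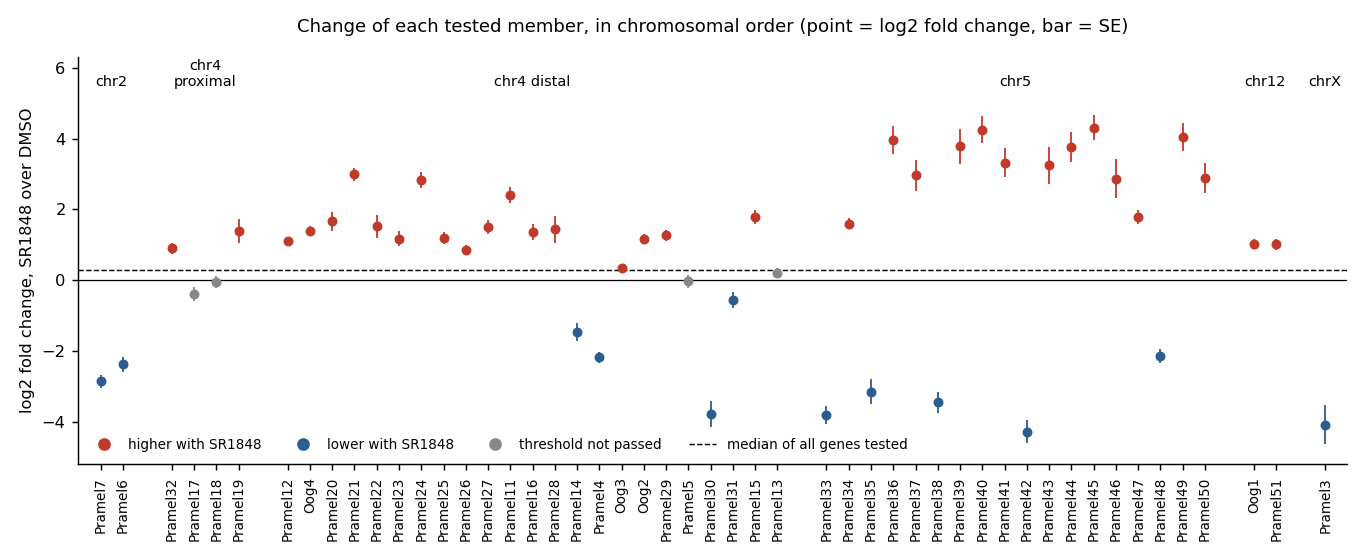
Log2 fold change of the 50 tested genes (y axis, SR1848 over DMSO, bars are SE), placed along x in their order on chromosomes 2, 4, 5, 12 and X. Of the 50 genes, 34 were higher and 12 lower. Within the chromosome 5 array 13 rises and 5 falls are interleaved, and both chromosome 2 genes lie below 0. When libraries are scaled to the summed oocyte list, 10 rises turn below 0, among them Oog1, Oog2 and Oog3. Pramel13, which did not pass, does so too.

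The genes lie in a few arrays, given here with GENCODE M21 positions on GRCm38. The distal chromosome 4 array (chr4:143394428-144408464) holds 24, of which 17 were higher, 4 lower, 2 not past the threshold and 1 not tested. The chromosome 5 array (chr5:93481829-95736173) holds 18, with 13 higher and 5 lower. Among all genes tested, 47.2% were higher and 35.4% lower. With the summed oocyte list the distal chromosome 4 array had 4 higher and 8 lower, and the chromosome 5 array again 13 and 5. Under that scaling 9.07% of all genes were higher and 67% lower. Both genes of the small chromosome 2 pair, Pramel7 and Pramel6 (chr2:87489087-87510872), were lower. On chromosome 12, Oog1 and Pramel51 were both higher, though both signs turned with the summed oocyte list. Pramel3 on the X chromosome was lower. The other 4 genes, Pramel32 and the trio Pramel17, Pramel18 and Pramel19, lie on chromosome 4 outside the array.

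The start sequences of many rising genes resembled each other. RefSeq gives a start region on GRCm38.p6 for 41 of the 51 genes, 250 bases before and 50 after the start. Reading them showed a recurring pair of words, GGTGTGG followed by TATATA on the gene's strand, and the pair was then counted with 15 to 60 bases between the first letters. It was chosen after the sequences and the fold changes had been seen, so its counts are a description. The 90 bases before the start are shown for the 4 Oog genes and for 4 rising Pramel genes that hold the pair, with both words in capitals.

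Oog1 (chr12:87602575-87602664, plus strand): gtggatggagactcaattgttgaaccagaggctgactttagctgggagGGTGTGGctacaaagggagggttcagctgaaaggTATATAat
Oog2 (chr4:144190627-144190716, plus strand): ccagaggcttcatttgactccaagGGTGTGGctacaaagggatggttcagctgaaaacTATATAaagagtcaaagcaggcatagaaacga
Oog3 (chr4:144162652-144162741, minus strand): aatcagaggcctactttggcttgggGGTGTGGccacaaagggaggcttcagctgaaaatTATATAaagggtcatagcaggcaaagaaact
Oog4 (chr4:143450325-143450414, minus strand): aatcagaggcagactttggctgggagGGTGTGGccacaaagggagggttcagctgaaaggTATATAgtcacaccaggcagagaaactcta
Pramel27 (chr4:143846407-143846496, plus strand): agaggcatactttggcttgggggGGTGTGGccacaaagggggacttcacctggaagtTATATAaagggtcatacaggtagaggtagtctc
Pramel24 (chr4:143719361-143719450, plus strand): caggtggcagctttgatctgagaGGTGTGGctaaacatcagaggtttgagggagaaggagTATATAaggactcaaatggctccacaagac
Pramel39 (chr5:94306797-94306886, minus strand): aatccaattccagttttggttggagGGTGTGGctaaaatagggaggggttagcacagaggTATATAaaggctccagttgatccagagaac
Pramel37 (chr5:94070546-94070635, minus strand): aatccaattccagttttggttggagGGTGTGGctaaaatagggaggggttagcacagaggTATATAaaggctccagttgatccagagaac

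Beside them stand 3 genes that were lower with SR1848 and do not hold the pair. In Pramel4 the capitals mark GGTGTGG alone. The RefSeq start of Pramel33 lies 3869 bases from the GENCODE start of the gene, and farther still from its falling transcript ENSMUST00000201432, whose first exon is chr5:93493570-93493701, so the bases shown are not those before that transcript. The RefSeq starts of Pramel4 and Pramel6 lie within 1 base of the GENCODE starts. In Pramel6 the shorter falling transcript ENSMUST00000148582 begins there. The first exon of its main falling transcript ENSMUST00000026956 is chr2:87508458-87508744, so the bases shown are not those before that transcript.

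Pramel33 (chr5:93536332-93536421, minus strand): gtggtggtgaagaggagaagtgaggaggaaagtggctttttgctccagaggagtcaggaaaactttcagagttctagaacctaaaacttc
Pramel4 (chr4:144059035-144059124, plus strand): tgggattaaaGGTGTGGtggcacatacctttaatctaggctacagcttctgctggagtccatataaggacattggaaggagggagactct
Pramel6 (chr2:87506475-87506564, plus strand): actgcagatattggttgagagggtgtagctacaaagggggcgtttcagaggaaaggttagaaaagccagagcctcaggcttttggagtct

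The pair was present in 18 of the 41 start regions, and in 35 of the 32851 start regions of all genes (0.107%). All 18 genes were higher with SR1848 under TMM scaling, although 8 of them (Oog1, Oog2, Oog3, Pramel23, Pramel25, Pramel26, Pramel29 and Pramel32) turned below 0 with the summed oocyte list, and Oog4 and Pramel27 lost the call there. None of the 11 genes with a start region that were lower held the pair, but the region listed for one of them, Pramel48, is at the start of its rising transcript (described below) and not of its falling one. In the 18, the first letters of the words stood 34 to 37 bases apart, and TATATA began 8 to 43 bases before the start. The annotations differ in some starts: among the 34 genes whose RefSeq start lay within 500 bases of the GENCODE start, 18 of 23 risers and 0 of 7 fallers, Pramel48 included, held the pair. Pramel6 is also among these fallers, though its region is not at the start of its main falling transcript. Of the other 17 genes with the pair, 3 were tested (Fcgbp, Gm2042 and Ifit1bl2), and all 3 were higher, where 47.2% of all genes were. Gm2042 shares 69.7% of its 31-base words with Oog1 and lost the call with the summed oocyte list, at -0.21. Genes of an array resemble each other in sequence throughout, so these are not independent cases.

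Single words were searched on both strands. TATAAA, the usual TATA box, was in 14 of the 41 regions and in 13.6% of all, and it overlaps TATATA where the letters run on. AAGGTCA, the letters read by NR5A receptors, was in 1 of 41 (Pramel11) against 4.72% of all, and the variant AAGGCCA in 3 of 41 (Pramel4, Pramel5 and Pramel40) against 6.20%. TAATCC, read by paired-type homeobox factors, was in 5 of 41 (Pramel17, Pramel11, Pramel4, Pramel5 and Pramel40) against 7.06%. The RefSeq start of Pramel40 lies 16442 bases from its GENCODE start, where its main transcript begins. Its words are therefore not in front of that transcript. A missing word says only that these letters are not in this window.

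Oog3 and Oog1 led the set in level, and their rises were modest and turned below 0 with the summed oocyte list. Oog3 (chr4:144157557-144162663, minus strand), the most abundant, ranged from 526 to 5939 CPM around a median of 2407 with SR1848, and from 808 to 4498 CPM around a median of 1840.4 with DMSO. The groups overlapped over most of their range, and 7 SR1848 embryos lay above all DMSO embryos and 4 below. Oog3 averaged 2646 ± 1242 CPM with SR1848 and 2093 ± 955 CPM with DMSO (SD, log2 fold change 0.34 with an SE of 0.13, adjusted p by edgeR = 0.0101). That call was lost with RLE factors, total counts, no filter and DESeq2, and the sign turned to -0.96 with the summed oocyte list.

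Oog1 (chr12:87602688-87608850) gave a lowest, median and highest level of 195, 1208 and 3735 CPM with SR1848, against 215, 595 and 1512 CPM with DMSO. Of the SR1848 embryos, 29 were above every DMSO embryo and 1 below. The other chromosome 12 gene, Pramel51, had a lowest, median and highest level of 71.9, 715 and 2250.5 CPM with SR1848, against 118, 303 and 977 CPM with DMSO. Oog1 (1.01 ± 0.14 log2, SE) and Pramel51 (1.02 ± 0.15) had like log2 fold changes, and they share so much sequence that their counts cannot be kept apart: 6.59% of the 31-base words of Oog1 are its own. Summed under TMM scaling, the 2 genes rose 1.99-fold (log2 0.996 ± 0.15, SE, edgeR adjusted p = 8.36e-10). With the summed oocyte list, Oog1 stood at -0.32 and Pramel51 at -0.30.

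Oog2 ran from 46.2 to 578 CPM around a median of 189 with SR1848, and from 36.9 to 159 CPM around a median of 89.8 with DMSO, and 50 SR1848 embryos exceeded all DMSO embryos (log2 fold change 1.16 ± 0.13, but -0.22 with the summed oocyte list). Oog4, far less abundant, averaged 46.4 ± 24.4 CPM with SR1848 and 17.7 ± 8.34 CPM with DMSO (log2 fold change 1.39 ± 0.14; 0.00066 with the summed oocyte list). The level of the 4 Oog genes together was 4207 ± 1993 CPM with SR1848 and 2850.4 ± 1235 CPM with DMSO.

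A second tier of genes on distal chromosome 4 resembles the Oog genes in start sequence and in change. Pramel25 averaged 362 ± 239 CPM with SR1848 and 158 ± 71.4 CPM with DMSO, and Pramel29 366 ± 220.3 CPM with SR1848 and 152 ± 74.3 CPM with DMSO. Their log2 fold changes were 1.197 ± 0.17 and 1.27 ± 0.15, near those of Oog1 and Oog2, and stood at -0.19 and -0.058 with the summed oocyte list. Pramel26 (log2 0.86 ± 0.13), Pramel27 (1.502 ± 0.20), Pramel23 (1.17 ± 0.22), and Pramel32 outside the array (0.90 ± 0.15) were of the same kind, at 149 against 81.9 CPM, 95.0 against 33.5 CPM, 20.8 against 9.22 CPM and 82.6 against 44.3 CPM (SR1848 against DMSO). Of these, Pramel27 alone kept a positive sign with the summed oocyte list, at 0.14.

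Pramel24, Pramel21 and Pramel11 rose further, and stayed higher at smaller log2 fold changes of 1.77, 1.86 and 1.318 with the summed oocyte list. Pramel24 (chr4:143719455-143729158) had a lowest, median and highest level of 1.18, 210.1 and 667 CPM with SR1848, against 0.215, 21.1 and 122 CPM with DMSO. The medians are far apart, and 66 of 80 SR1848 embryos lay above every DMSO embryo (log2 fold change 2.84 with an SE of 0.23, adjusted p by edgeR = 2.02e-23). Pramel21 (chr4:143615003-143618595) was scarcer, and its levels ran from 5.64 to 167 CPM around a median of 73.9 with SR1848, and from 0.648 to 30.9 CPM around a median of 7.98 with DMSO. Here 72 of 80 SR1848 embryos exceeded all 50 DMSO embryos, the cleanest rise of the set (log2 fold change 2.99 with an SE of 0.18, adjusted p by edgeR = 1.25e-32). Pramel11, also known as Pramef6, averaged 50.2 ± 28.1 CPM with SR1848 and 9.39 ± 8.29 CPM with DMSO (SD), and 54 SR1848 embryos were above all DMSO embryos (log2 2.42 ± 0.23, SE).

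Pramel12, Pramel15 and Pramel16 had smaller rises. Pramel12, also called Pramef8, shares almost nothing with other members (99.8% own 31-base words) and ranged from 25.2 to 154 CPM around a median of 61.5 with SR1848, and from 7.31 to 61.3 CPM around a median of 25.7 with DMSO. In 41 of 80 SR1848 embryos it was above all DMSO embryos, and the others overlapped (log2 1.09 ± 0.11, SE), but it stood at -0.18 with the summed oocyte list. Pramel15, reported in mouse zygotes to act on DNMT1, averaged 36.8 ± 23.04 CPM with SR1848 and 10.7 ± 8.19 CPM with DMSO (SD, log2 fold change 1.78 with an SE of 0.20, adjusted p by edgeR = 3.93e-15). It is free of shared words (100% own), and 20 SR1848 embryos were above all DMSO embryos. With the summed oocyte list Pramel15 stayed higher at 0.45. Pramel16 averaged 51.98 against 20.3 CPM (SR1848 against DMSO, log2 1.35 ± 0.22, SE) and did not pass with the summed oocyte list, at 0.17 (edgeR adjusted p = 0.518). Of its 31-base words 20.6% are its own, so its counts are uncertain.

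**Figure D2:**
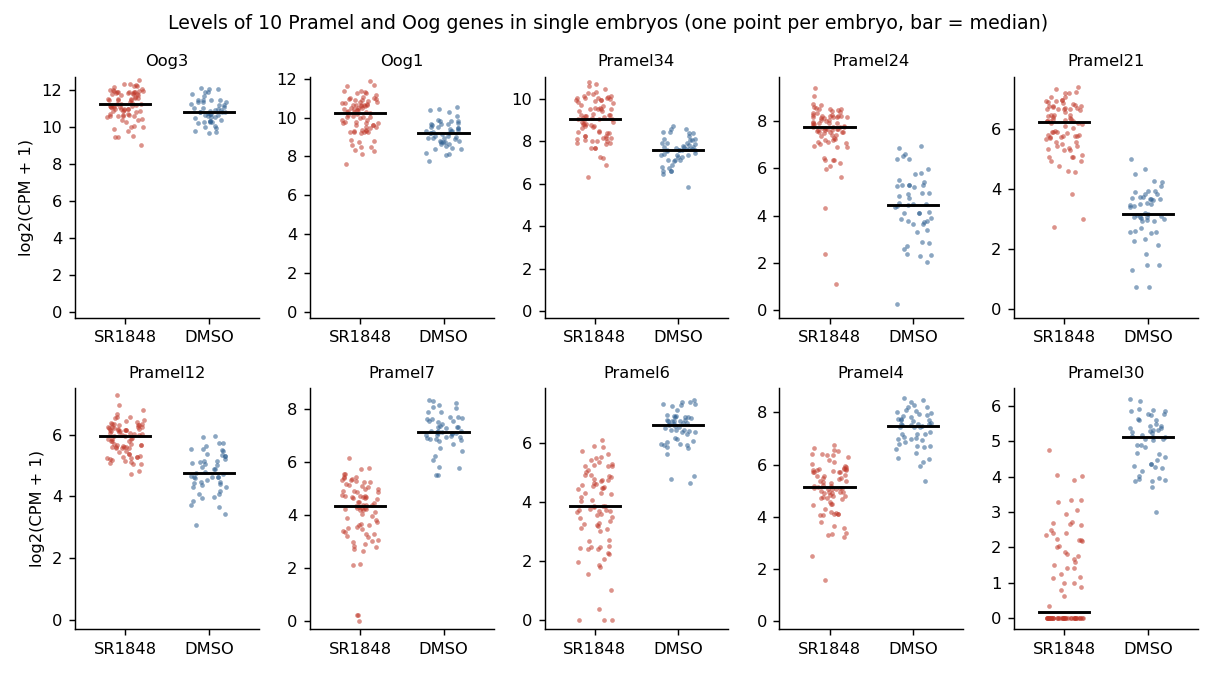
Level of 10 genes in each embryo, as log2(CPM + 1) on the y axis, with SR1848 (n = 80) left and DMSO (n = 50) right and a bar at the median. Pramel24 and Pramel21 are higher in most SR1848 embryos and Pramel7, Pramel6, Pramel4 and Pramel30 lower, while Oog3 overlaps (medians 2407 and 1840.4 CPM); the rises of Oog3, Oog1 and Pramel12 turn below 0 with the summed oocyte list.

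The chromosome 2 pair was lower with SR1848, with a sum of 40.4 ± 25.2 CPM with SR1848 and 255 ± 91.9 CPM with DMSO, and 77 of 80 SR1848 embryos were below every DMSO embryo. Pramel7 (chr2:87489087-87497093), the receptor for UHRF1 in embryonic stem cells, had a lowest, median and highest level of 0, 19.6 and 71.2 CPM with SR1848, against 44.99, 142 and 331 CPM with DMSO. In 75 of 80 SR1848 embryos it was below the lowest DMSO embryo. Pramel7 averaged 21.8 ± 14.2 CPM with SR1848 and 158 ± 69.6 CPM with DMSO (SD; log2 fold change -2.86 with an SE of 0.18, adjusted p by edgeR = 2.87e-32), a 7.26-fold lower level. Pramel6 (chr2:87506565-87510872), its neighbour, ranged from 0 to 67.1 CPM around a median of 13.5 with SR1848, and from 23.7 to 176 CPM around a median of 96.3 with DMSO. The 2 groups overlapped in part: 55 SR1848 embryos lay below all DMSO embryos (log2 fold change -2.37 with an SE of 0.21, adjusted p by edgeR = 6.02e-21). Sequence sharing does not blur this pair, since 91.4% and 99.0% of their 31-base words are their own. Neither gene changed sign or call under the alternatives fitted per gene, although 1 transcript of Pramel6 did not pass (given below).

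On distal chromosome 4 the falls were those of Pramel4, Pramel30, Pramel14 and Pramel31, which lie among rising genes. Pramel4 (chr4:144059126-144069327) stands next to Oog3 in the order of the set and gave a lowest, median and highest level of 2.00, 33.8 and 107 CPM with SR1848, against 39.8, 179 and 378 CPM with DMSO. It was below all DMSO embryos in 46 of 80 (log2 fold change -2.18 with an SE of 0.15, adjusted p by edgeR = 1.15e-28). Of the 31-base words of Pramel4, 8.46% are its own and 88.3% also occur in Gm13102, so its counts are uncertain. Pramel30 ranged from 0 to 26.1 CPM around a median of 0.142 with SR1848, and from 6.998 to 71.6 CPM around a median of 33.7 with DMSO, with a count in 40 of 80 SR1848 embryos and in all 50 DMSO embryos. In 72 of 80 SR1848 embryos it was below all DMSO embryos (log2 fold change -3.78 with an SE of 0.36, adjusted p by edgeR = 1.00e-18). Pramel30 and Pramel14 share most of their sequence, and summed they fell 6.00-fold. Pramel31 changed least, with a log2 fold change of -0.56 ± 0.22, and missed the threshold with upper-quartile factors.

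Pramel3 on the X chromosome (chrX:135302307-135312652) was uneven among controls. Its lowest, median and highest levels were 0, 0 and 23.04 CPM with SR1848, against 0, 15.6 and 195 CPM with DMSO. It had a count in 25 of 80 SR1848 embryos and in 29 of 50 DMSO embryos, so both groups hold embryos without it (log2 fold change -4.08 with an SE of 0.55, adjusted p by edgeR = 2.97e-11). Of its 31-base words 9.19% are its own, so its counts are uncertain.

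Rising and falling genes were interleaved in the chromosome 5 array, and they split by sequence. The array's genes were grouped by shared 31-base words (at least 50% of the words of either gene). Pramel33, Pramel35, Pramel38 and Pramel42 form one such group. Pramel36, Pramel37, Pramel39, Pramel43, Pramel46, Pramel49 and Pramel50 form another, and Pramel40, Pramel41, Pramel44 and Pramel45 a further one. Within a group counts cannot be assigned to a gene with confidence: Pramel36 and Pramel49 have an identical transcript of 1848 bases, and Pramel37 and Pramel50 one of 1897. Between these 3 groups at most 0.0978% of the words are shared, so few reads of that length could be exchanged between the groups.

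The Pramel33 group summed to a lowest, median and highest level of 0, 19.1 and 167 CPM with SR1848, against 75.5, 327 and 1067 CPM with DMSO. In 77 of 80 SR1848 embryos it was below every DMSO embryo, a 14.3-fold lower level (log2 -3.84 ± 0.25, SE, edgeR adjusted p = 6.83e-31). Its genes fell alike, Pramel42 with 8.25 against 159.7 CPM, Pramel33 with 8.603 against 119 CPM, Pramel38 with 5.66 against 61.8 CPM and Pramel35 with 4.46 against 39.8 CPM (SR1848 against DMSO).

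The Pramel36 group did the opposite, with 4.94, 96.7 and 1184 CPM with SR1848, against 0, 5.24 and 188 CPM with DMSO. The level with SR1848 was 11.7-fold higher (log2 3.55 ± 0.35, SE), and 15 SR1848 embryos exceeded the highest DMSO embryo, which stood apart at 188 CPM. Pramel39 (34.6 against 2.46 CPM), Pramel36 (30.9 against 1.91 CPM), Pramel49 (30.7 against 1.81 CPM) and Pramel43 (25.2 against 2.62 CPM, SR1848 against DMSO) carried most of it.

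The Pramel40 group ran from 5.19 to 813 CPM around a median of 113 with SR1848, and from 0 to 50.2 CPM around 5.07 with DMSO. Here 61 of 80 SR1848 embryos were above all DMSO embryos (16.6-fold higher, log2 4.06 ± 0.30, SE). Pramel45, at 73.3 against 3.65 CPM, had the largest rise of all 50 tested genes (log2 4.31 ± 0.35), followed by Pramel40 at 45.7 against 2.38 CPM (log2 4.26 ± 0.38). Pramel44 had 24.4 against 1.74 CPM (SR1848 against DMSO). The 11 genes of the Pramel36 and Pramel40 groups had means of at most 3.65 CPM with DMSO, so their folds rest on few control counts.

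The balance of these 3 groups differed within single embryos. The Pramel36 and Pramel40 groups together exceeded the Pramel33 group in 80 of 80 SR1848 embryos and in 1 of 50 DMSO embryos. This comparison sets counts of the same library against each other and does not depend on how libraries are scaled. It was chosen after the group levels were seen and is a description. The 15 genes of the 3 groups summed to 341 ± 353 CPM with SR1848 and 403 ± 214 CPM with DMSO. The start regions followed the groups: those of 6 genes of the Pramel36 group were 84.8% to 100% identical over up to 250 bases before the start, those of 3 genes of the Pramel33 group 96.7% to 99.6%, and across the 2 groups 35.7% to 38.3%. Each identity is the highest over ungapped shifts of up to 100 bases, a maximum that runs high for unlike sequences too. The Pramel33, Pramel35 and Pramel38 regions come from RefSeq starts 3869, 49152 and 57603 bases from the GENCODE starts, so they may not be the starts used here.

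**Figure D3:**
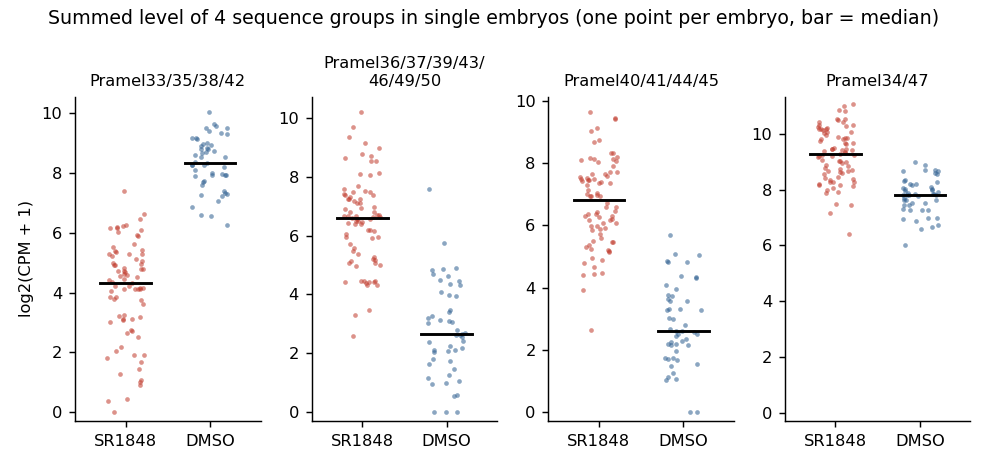
Summed level of 4 sequence groups of the chromosome 5 array in each embryo, as log2(CPM + 1) on the y axis, SR1848 (n = 80) left of DMSO (n = 50), bar at the median. The Pramel33 group is lower with SR1848 (medians 19.1 and 327 CPM), and the Pramel36 and Pramel40 groups are higher (medians 96.7 and 113 CPM with SR1848, 5.24 and 5.07 CPM with DMSO).

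Pramel34 and Pramel47, the remaining sequence group of the array, were abundant in both conditions. Pramel34 (chr5:93634993-93671551) had a lowest, median and highest level of 79.2, 532 and 1741 CPM with SR1848, against 57.3, 194 and 414 CPM with DMSO. With SR1848, 52 of 80 embryos were above all DMSO embryos (log2 fold change 1.599 with an SE of 0.15, adjusted p by edgeR = 1.08e-18). Pramel47 averaged 121 ± 89.8 CPM with SR1848 and 35.1 ± 21.8 CPM with DMSO (log2 1.78 ± 0.19, SE). Together they rose 3.05-fold. With the summed oocyte list Pramel34 and Pramel47 stayed higher by much less, at log2 0.23 (edgeR adjusted p = 0.0475) and 0.43.

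Pramel48, which has 44.2% of its words in common with the Pramel33 group, held both directions within a single gene. As a gene it fell, with 19.9 ± 13.9 CPM with SR1848 and 87.6 ± 42.9 CPM with DMSO (log2 fold change -2.14 with an SE of 0.20, adjusted p by edgeR = 6.40e-19). It has 2 transcripts that share 96.1% and 95.8% of their 31-base words but begin at different first exons, at chr5:95473553-95473632 and at chr5:95456806-95456901. The transcript from the first of these exons (ENSMUST00000202481) averaged 6.26 ± 9.64 CPM with SR1848 and 86.8 ± 42.98 CPM with DMSO (log2 -3.89 ± 0.38, SE). The other (ENSMUST00000094593) averaged 13.7 ± 12.3 CPM with SR1848 and 0.862 ± 1.41 CPM with DMSO (log2 3.80 ± 0.51, SE). In 54 of 80 SR1848 embryos and in 0 of 50 DMSO embryos the second outnumbered the first. With so few words of their own, the split between the 2 rests on few reads.

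Pramel4, Pramel5 and Pramel6 were also uneven among their transcripts. Their transcripts share 86.2% to 100% of their words with each other. In Pramel5, ENSMUST00000035757 averaged 1.69 ± 4.88 CPM with SR1848 and 12.7 ± 12.1 CPM with DMSO (log2 -3.003 ± 0.53), while ENSMUST00000105752, which begins at a later exon, averaged 16.8 ± 13.3 CPM with SR1848 and 8.48 ± 11.1 CPM with DMSO (log2 0.87 ± 0.40). As a whole gene Pramel5 did not pass (24.9 against 25.3 CPM, log2 fold change -0.025 with an SE of 0.18, adjusted p by edgeR = 0.9). The main Pramel4 transcript (ENSMUST00000091676) averaged 22.6 against 166 CPM (log2 -2.99 ± 0.31), and a second one (ENSMUST00000156324) 11.5 against 12.03 CPM, which did not pass. For Pramel6, ENSMUST00000026956 had 10.97 against 74.1 CPM (log2 -2.86 ± 0.27) and ENSMUST00000111572 5.19 against 4.75 CPM, which did not pass. Of all 25763 transcripts tested, 73.6% passed, 38.5% higher and 35.1% lower.

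The falling transcripts of Pramel33, Pramel48, Pramel4 and Pramel5 shared a word in their first exon although the genes lie on 2 chromosomes. The longest stretch common to the first 150 bases of ENSMUST00000201432, ENSMUST00000202481, ENSMUST00000091676 and ENSMUST00000035757 is 24 bases long, and it is shown here at its place in Pramel33.

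Pramel33 (chr5:93493649-93493672, minus strand): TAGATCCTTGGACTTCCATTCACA

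This word was found in 12 transcripts of 7 genes of the set: Pramel33, Pramel35, Pramel42 and Pramel48 on chromosome 5, and Pramel4, Pramel5 and Pramel17 on chromosome 4. Of the 10 tested, 8 were lower (among them that of Pramel17, which did not pass as a gene), 1 did not pass (ENSMUST00000156324 of Pramel4) and 1 short transcript of Pramel5 was higher (ENSMUST00000133357, 5.55 against 3.18 CPM). Of the 79 tested transcripts of the set without the word, 63 were higher and 12 lower. Outside the set the word stood in 178 transcripts, of which 57 were tested, 29 lower and 14 higher. Because it was read from transcripts that fell, the counts within the set are a description. Those outside it stand beside 35.1% lower and 38.5% higher among all transcripts. Close sequence relatives of the set under other symbols were not taken out of the outside counts. Among such relatives, Gm13102 (close to Pramel4) and Gm3183 (close to Pramel42) were lower as genes. How many relatives hold the word was not counted, so the outside counts may not be independent of how the word was chosen.

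**Figure D4:**
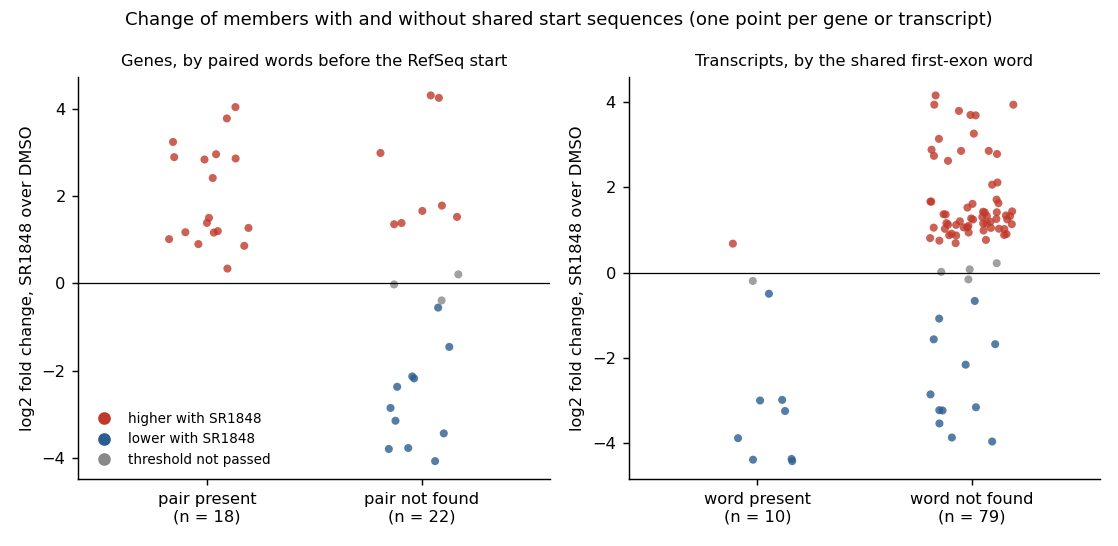
Log2 fold change (y axis, SR1848 over DMSO) of the 40 tested genes with a start region, split by the paired words GGTGTGG and TATATA (left), and of the 89 tested transcripts with sequence, split by the 24-base first-exon word (right); each point is a gene or transcript, coloured by its call. All 18 genes with the pair lie above 0 (8 of them below 0 with the summed oocyte list), and 8 of 10 transcripts with the word were lower.

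Pramel13, Pramel17, Pramel18 and Pramel5 were tested and did not pass. Pramel13, listed elsewhere as Pramef12 and needed for the upkeep of mouse spermatogonia, ranged from 1.97 to 58.1 CPM around a median of 21.1 with SR1848, and from 4.44 to 46.3 CPM around a median of 17.9 with DMSO (log2 0.20 ± 0.15, edgeR adjusted p = 0.186). Pramel17 averaged 72.5 ± 48.3 CPM with SR1848 and 95.1 ± 41.7 CPM with DMSO (log2 -0.39 ± 0.20, edgeR adjusted p = 0.0682). It was near the threshold and became lower with RLE factors, total counts, no filter, DESeq2 and limma-voom. Pramel18 averaged 28.1 ± 16.2 CPM with SR1848 and 29.1 ± 17.5 CPM with DMSO (log2 -0.049 ± 0.18), and its sequence relative Pramel19 was higher, at 11.6 against 4.44 CPM (SR1848 against DMSO), a call lost with the summed oocyte list (log2 0.073). Summed, Pramel18 and Pramel19 did not pass (log2 0.22 ± 0.17, SE, edgeR adjusted p = 0.219). Pramel1 was not tested, with 0.759 ± 0.870 CPM with SR1848 and 1.99 ± 1.604 CPM with DMSO.

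The counts are given by control level, as a description. The classes were cut on the same DMSO values that enter the fold change, so counts in all 3 classes depend on that cut. Among all genes tested, 47.2% were higher and 35.4% lower. Of 28 genes abundant in controls (at least 20 CPM on average), 14 were higher, 10 lower and 4 did not pass, near those shares. Of 13 intermediate genes, 11 were higher and 2, Pramel14 and Pramel31, lower. Of 10 scarce genes (under 2 CPM), the 9 tested were all higher. A gene scarce in controls could enter the test mainly through SR1848 embryos, so that count had to come out this way. With no filter 33 of 51 genes were higher and 14 lower, where 34% and 24.8% of all genes were (58.8% in either direction). Of the remaining low genes, Pramel20 had 15.8 against 4.96 CPM, Pramel28 3.38 against 1.22 CPM and Pramel22 2.62 against 0.890 CPM. On chromosome 5, Pramel41 had 18.2 against 1.79 CPM, Pramel46 12.7 against 1.71 CPM, Pramel37 9.05 against 1.13 CPM and Pramel50 9.07 against 1.19 CPM (SR1848 against DMSO). All these were higher, although Pramel20, Pramel28 and Pramel22 did not pass with the summed oocyte list (log2 0.50, 0.28 and 0.26), while Pramel14, with 6.12 against 16.9 CPM, was lower. Grouping the genes that share sequence gave 34 units, and of the 33 tested 21 were higher and 8 lower, where 46.6% and 35.8% of all units were (82.4% in either direction).

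Per length, Oog3 also led. On the TPM scale (counts per transcript length, brought to a common sum), computed with GENCODE M21 lengths, Oog3 had a level of 2126 with SR1848 and 1955 with DMSO. Oog1 had 1254 and 729 TPM, Pramel34 779 and 298 TPM, and Pramel51 671 and 386 TPM (SR1848, then DMSO). Pramel7 had 26.6 TPM with SR1848 and 198 TPM with DMSO, where it stood above Pramel25 (186 TPM).

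Embryos of the same group varied widely. The between-embryo coefficient of variation of Oog3 was 46.95% with SR1848 and 45.6% with DMSO, and that of Pramel39 122% and 237%. Counts of Oog3 were present in all 130 embryos. Pramel39 had a count in 72 of 80 SR1848 embryos and 20 of 50 DMSO embryos, and Pramel30 in 40 and 50.

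The name rule leaves out relatives under other symbols. By RefSeq identifier only Pramex2 was found, with no count in SR1848 embryos and 0.0530 CPM on average in DMSO embryos, and it was not tested. By sequence, 26 genes outside the set share at least 50% of their 31-base words with the Pramel and Oog genes as a pool. Of the 25 tested, 16 were higher and 9 lower, where 47.2% and 35.4% of all genes were. With the summed oocyte list 7 of 24 were higher and 10 lower, where 9.07% and 67% of all genes were, and Gm2042 lost its call. The most abundant in controls were Gm3183 (46.8 against 754 CPM, SR1848 against DMSO), which shares 87.1% of its words with Pramel42 and fell as the Pramel33 group did, and Gm2042 (805 against 373 CPM), which shares 69.7% with Oog1 and holds the start pair, although the counting cannot keep either gene apart from its relative.

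The ligase that PRAME-type receptors join was mostly lower. Of 8 genes of the CUL2 core, 7 were tested: 6 were lower and 1 higher, where 35.4% of all genes were lower and 47.2% higher. Cul2, the scaffold, averaged 25.1 ± 19.2 CPM with SR1848 and 65.8 ± 27.8 CPM with DMSO (SD, log2 -1.39 ± 0.18, SE). The elongin adaptors Elob (68.4 against 139.6 CPM) and Eloc (97.2 against 409 CPM), the RING subunit Rbx1 (80.3 against 204 CPM), the ubiquitin-like modifier Nedd8 (27.1 against 123 CPM) and the exchange factor Cand1 (212 against 328 CPM) were lower with SR1848. Dcun1d1, which helps to attach NEDD8, was higher at 576 against 318 CPM, although this turned to -0.50 with the summed oocyte list. Ube2m was not tested (1.07 against 0.510 CPM).

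Other CUL2 receptors went both ways: of 12 tested, 3 were higher, 8 lower and Zer1 did not pass, beside 47.2% higher and 35.4% lower among all genes. Fem1b, the third of those higher, turned to -1.05 with the summed oocyte list. Lrr1, a leucine-rich-repeat receptor that acts in replisome unloading, averaged 49.4 ± 20.5 CPM with SR1848 and 264 ± 89.8 CPM with DMSO (log2 -2.42 ± 0.10). Fem1c had 68.3 against 264 CPM, whereas the kelch receptors Klhdc2 and Klhdc3 were higher with 2993 against 511 CPM and 456 against 119 CPM. Of 5 reported targets or partners, 3 were higher and 2 lower, to be read against the same shares. Uhrf1 averaged 106 ± 48.1 CPM with SR1848 and 55.2 ± 24.9 CPM with DMSO (SD, log2 fold change 0.95 with an SE of 0.12, adjusted p by edgeR = 2.34e-12), while it stood at -0.42 with the summed oocyte list, and protein was not measured. Rara (12.6 against 3.74 CPM) and Ezh2 (116 against 99.9 CPM) were higher too, Ezh2 with -1.13 under that scaling, while Dnmt1 (46.02 against 61.9 CPM) and Trim28 (72.4 against 130.3 CPM) were lower. Over the 24 tested genes of these lists, 7 higher calls became 2 with the summed oocyte list.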

How the data were processed

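Single 2-cell embryos were sequenced individually, 80 with SR1848 and 50 with DMSO (2730852 to 8438537 counts each), and grouped by the labels' treatment field. Per the submitters' processing notes, the tools were DESeq2 1.32.0, R 3.5.1, kallisto 0.46.1, Trim Galore 0.6.2 and bcl2fastq, and the builds mm10 and hg19. The authors deposited estimated counts per transcript, with no normalization that the values show, and these expected counts were summed per gene and rounded here. Entries that name no gene held 0.734% of counts and were left out. The authors' deposited DESeq2 table (mean signal, log2 fold change, test score and p-value per transcript) gave the gene names, and their log2 normalized counts were not tested. Coordinates come from GENCODE M21 (GRCm38) and start regions from RefSeq (GRCm38.p6).

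edgeR 4.0.16 in R 4.3.3 (filterByExpr, TMM, robust quasi-likelihood) tested all 13224 genes, with Benjamini-Hochberg adjustment and a threshold of 0.05. The test was checked on simulated data in which a small part of the genes changed, in both directions. That check does not cover a shift of most genes and so cannot say which scaling is right here. Alternatives were other scalings, no filter or a 5 CPM filter, DESeq2 1.42.0, limma-voom, depth as a covariate, thinning to the smallest library, a replicate block, single transcripts, sequence groups and leaving out 1 SR1848 embryo of low depth. The genes, lists and words were chosen with earlier results of these data known. Named genes were those of at least 20 CPM in either group, the 5 largest rises and falls, those that did not pass at 5 CPM or more, Pramel6, Pramel7, Pramel13 and Oog1 to Oog4. With 80 and 50 embryos, the number of embryos, their spread and the reads per gene limit precision. Values in sequence-sharing genes are estimates, since kallisto divides shared reads among transcripts.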

Additional observations from a re-analysis of the deposited data

How the results depend on the processing

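Scaling to the oocyte list was the choice that moved the results. With the summed list, 17 genes of the set were higher and 21 lower, and of the CUL2 lists 2 were higher. With its median gene, added after seeing the data, 22 were higher, and with sequence groups, also added then, 21 units were higher. Signs reversed with the summed list for Oog1 (-0.32), Oog2 (-0.22), Oog3 (-0.96), Pramel12 (-0.18), Pramel13 (-1.17), Pramel23 (-0.23), Pramel25 (-0.19), Pramel26 (-0.47), Pramel29 (-0.058), Pramel32 (-0.47) and Pramel51 (-0.30). With the median gene they reversed for Oog1 (-0.0035), Oog3 (-0.64), Pramel13 (-0.75), Pramel26 (-0.13) and Pramel32 (-0.14). Over 644 combinations of gene and setting, 596 kept direction and side of the threshold. Aside from the oocyte scalings, 46 of 50 genes kept both under every alternative fitted per gene. The exceptions were Oog3, Pramel31, Pramel13 and Pramel17. Sequence groups and single transcripts are not part of these counts. There Pramel19, summed with Pramel18, did not pass, and transcripts of Pramel48 and of Pramel5 were called in both directions. The replicate numbers do not pair the embryos (median correlation of same-numbered deviations 0.019 over 50 numbers, 2 of 50 over 0.1). With them as a block, 32 genes were higher and 12 lower of 48 tested. Depth limits the scarce genes most, where a few reads set the control mean. The cause of these shifts was not tested.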
